A study of Mus musculus with 6 samples.

Results

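The epidermal growth factor (EGF) family was examined in type 2 innate lymphoid cells (ILC2s) through 6 of the 53278 genes listed. They are the genes of the ligands amphiregulin (Areg), heparin-binding EGF-like growth factor (Hbegf), epiregulin (Ereg), betacellulin (Btc) and transforming growth factor alpha (Tgfa), and that of the receptor Egfr. The members were listed by gene symbol. The ILC2s were sorted from visceral adipose tissue of C57BL/6 mice aged 8 weeks that had received 3 intraperitoneal injections of 1 µg IL-33. All cells were then cultured with IL-2 (10 ng/mL) and IL-7 (10 ng/mL), either with 5 µg/mL DTA-1, an agonistic antibody to the glucocorticoid-induced TNF receptor GITR, or with the isotype control antibody. RNA of 3 libraries per group was sequenced, each from 10 ng of RNA. The labels give a culture time of 48 h, whereas the text that describes the result gives a shorter one. The comparison asks how engagement of GITR changes the transcriptome of activated ILC2s. Every library came from IL-33-activated cells, and the labels do not say whether the libraries of a group came from separate mice or cultures. The p-values measure the spread between these libraries, which may be technical.

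Ligands of the EGF family are made as precursors anchored in the cell membrane. Metalloproteases, above all ADAM17 and ADAM10, cut them to release the growth factor, which binds EGFR on the same or a neighbouring cell. Binding pairs EGFR with itself or with another ERBB receptor and starts signalling through RAS and MAP kinases. Amphiregulin binds EGFR alone and with low affinity, whereas HB-EGF, betacellulin and epiregulin also bind ERBB4. Amphiregulin is a known product of ILC2s and of regulatory T cells in tissues under repair, and IL-33 is a known inducer of it.

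Values are given as normalized counts, that is CPM after TMM normalization, and, where genes are set against each other, as normalized counts per kb of exon. The libraries held 30569351 to 35131329 counts, so a count of 0 allowed up to 3 counts, or 0.0848 to 0.0970 normalized counts, with counting error only. The library labelled DTA-1 replicate 1 stood apart from its group, and whether its label is right cannot be told from the sources used here. The chi-square of counts between a pair of libraries, divided by its degrees of freedom, was 10.1 to 11.9 between it and the isotype control libraries and 29.0 to 30.5 between it and the other DTA-1 libraries, against 12.0 to 18.4 within the isotype control group. The fold changes of the members are therefore given with and without this library. It was set apart by these same counts, which favours small p-values in the fits without it. Those p-values, for members and other genes alike, are given as a description. Of the other genes, some are given with all libraries only. All 12 ILC2 markers examined were above the limit of a 0 count in every library, with sums of 13632 to 14476 normalized counts in isotype control and 14656 to 19085 in DTA-1. Most of the gap between these sums came from Il5. It had 5063, 5418 and 5493 normalized counts with isotype control, as against 5627, 9695 and 8899 with DTA-1. Of these 12, 7 had a negative log2 fold change with all libraries. Without DTA-1 replicate 1, Il5, the most abundant of them, rose (log2 fold change 0.80, edgeR adjusted p = 0.000115) and Icos, a costimulatory receptor, fell (log2 fold change −0.71, edgeR adjusted p = 0.00129).

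Areg was the most abundant of the 6 members in every library. Per kb of exon its level was 159 ± 0.367 normalized counts (SD, n = 3) in isotype control and 230 ± 65.9 in DTA-1. Hbegf followed in isotype control with 1.42 ± 0.0669 normalized counts per kb, then Btc with 1.23 ± 0.0890 and Tgfa with 0.815 ± 0.224, and the libraries of these 4 neighbours did not overlap. The lowest levels were those of Ereg, at 0.201 ± 0.171 normalized counts per kb, and Egfr, at 0.148 ± 0.0914, whose libraries overlapped. In DTA-1 the levels per kb were 2.76 ± 0.994 for Hbegf, 1.16 ± 0.230 for Tgfa, 1.15 ± 0.0756 for Btc, 0.186 ± 0.163 for Egfr and 0.0452 ± 0.0521 for Ereg. There the libraries of Tgfa and Btc overlapped, as did those of Egfr and Ereg. In bulk RNA, fewer cells of a type and less RNA per cell cannot be told apart.

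**Figure D1:**
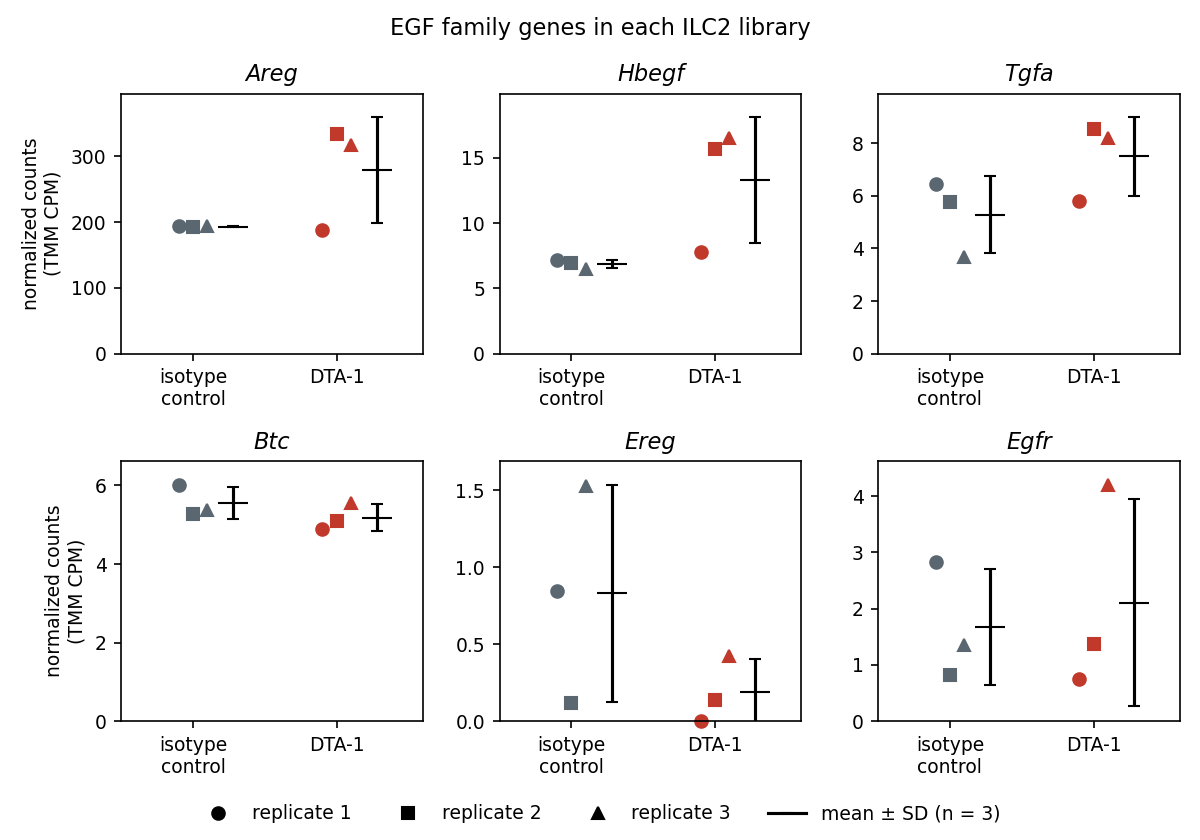
Normalized counts (vertical axes, each with its own scale from 0) of the 6 members in the isotype control and DTA-1 libraries. Each point is a library (n = 3 per group) and the horizontal line with its bar is the mean ± SD, cut off at 0 for Ereg. Areg and Hbegf of DTA-1 replicates 2 and 3 lie above all isotype control libraries, at 334 and 317 for Areg.

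Areg lies on the plus strand of chromosome 5, from 91139599 to 91148432 (GRCm38). The 250 bases before its start, chr5:91139349-91139598 on the plus strand, are shown because Areg carried most of the ligand reads. They come from the RefSeq promoter table of GRCm38.p6, and the capitals mark a cyclic AMP response element (TGACGTCA) and a TATA box (TATAAA).
Areg: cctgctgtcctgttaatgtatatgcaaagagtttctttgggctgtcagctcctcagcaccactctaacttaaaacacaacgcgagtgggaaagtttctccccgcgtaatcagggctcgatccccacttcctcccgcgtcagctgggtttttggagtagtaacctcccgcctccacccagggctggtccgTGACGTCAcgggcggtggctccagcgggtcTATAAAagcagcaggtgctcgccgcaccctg
The first base of the response element lies 61 bases before the start of the gene and that of the TATA box 31 bases before it. The response element, which reads the same on both strands, was found in 508 of the 32851 promoters of this length (1.55%). The TATA box, searched on the strand of the gene, was found in 7.59%. The AP-1 motif TGANTCA, held by 6.75% of promoters on either strand, and the NF-κB consensus, held by 7.25%, had no match in these letters. The promoters of Btc, Tgfa and Egfr held none of the 4 motifs. The response element and the TATA box of Areg do not overlap, and these matches describe letters only. The promoters of the other members were not used here.

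In order of replicate number, Areg had 193.5, 192.7 and 193.5 normalized counts with isotype control, as against 188, 334 and 317 with DTA-1. DTA-1 replicates 2 and 3 were above every isotype control library, and DTA-1 replicate 1 was below all of them. The deposited counts behind these values were 6847, 6760 and 6827 with isotype control, as against 5799, 10440 and 10090 with DTA-1. Counting error was thus small beside the distance of DTA-1 replicates 2 and 3 from the other libraries. It was larger than the SD of the isotype control libraries, so that SD is a poor measure of the spread between libraries. The means were 193 ± 0.446 and 280 ± 80.1 (SD, n = 3), a log2 fold change of 0.53 (SE 0.17, 95% interval 0.16 to 0.91). The difference missed the threshold by edgeR's quasi-likelihood test (adjusted p = 0.627, unadjusted p = 0.00965). Without DTA-1 replicate 1, Areg was 1.68-fold higher (log2 fold change 0.75, SE 0.06, edgeR adjusted p = 0.000163). This last p-value is a description, because that library was set apart by these same counts. Over the 13 alternative fits the adjusted p for Areg ranged from 0.000163 to 0.999.

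Hbegf, on the minus strand of chromosome 18 from 36504929 to 36515805, encodes a ligand known for its affinity for heparan sulfate. It had 7.15, 6.96 and 6.52 normalized counts with isotype control, as against 7.80, 15.7 and 16.5 with DTA-1. All 3 DTA-1 libraries were above all isotype control libraries, but DTA-1 replicate 1 lay close to them and the other two were about level with each other. The means were 6.88 ± 0.323 and 13.3 ± 4.80, a log2 fold change of 0.95 (SE 0.25, 95% interval 0.39 to 1.51, edgeR adjusted p = 0.627, unadjusted p = 0.00322). DESeq2 gave the same direction with an adjusted p of 0.0805. Without DTA-1 replicate 1, Hbegf rose 2.34-fold (log2 fold change 1.23, SE 0.16, edgeR adjusted p = 0.00524). The adjusted p for Hbegf ranged from 0.00524 to 0.999 over the 13 alternative fits.

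Tgfa, whose product is a classical EGFR ligand, lies on the plus strand of chromosome 6 from 86195223 to 86275719. It had 6.44, 5.76 and 3.66 normalized counts with isotype control, as against 5.79, 8.52 and 8.19 with DTA-1. DTA-1 replicates 2 and 3 were again above all isotype control libraries, and DTA-1 replicate 1 was among them. The means were 5.29 ± 1.45 and 7.50 ± 1.49, with a log2 fold change of 0.50 (SE 0.25, 95% interval −0.05 to 1.06, edgeR adjusted p = 0.722). With DTA-1 replicate 1 left out, Tgfa differed by a log2 fold change of 0.66 (95% interval 0.08 to 1.24, edgeR adjusted p = 0.286), so Tgfa did not pass the test in either fit.

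Btc and Ereg, the other ligands, did not pass the test. Btc lies on chromosome 5 on the minus strand, from 91357261 to 91402994, and had 6.02, 5.27 and 5.39 normalized counts with isotype control, as against 4.88, 5.09 and 5.55 with DTA-1. Its groups overlapped, and the log2 fold change was −0.10 (SE 0.20, 95% interval −0.54 to 0.33, edgeR adjusted p = 0.942). The interval lies within a 1.5-fold change in either direction, and with DTA-1 replicate 1 left out it was −0.06 (edgeR adjusted p = 0.934). Ereg, on the plus strand of chromosome 5 from 91074622 to 91093646, had 0.844, 0.117 and 1.53 normalized counts with isotype control, as against 0, 0.138 and 0.422 with DTA-1. These levels rest on 105.73 counts in all, and isotype control replicate 2 lay within the range of the DTA-1 libraries. The log2 fold change of Ereg was −2.19 (SE 1.04, 95% interval −4.48 to 0.10, edgeR adjusted p = 0.702). With DTA-1 replicate 1 left out it was −1.62 (edgeR adjusted p = 0.537). It moved to −3.62 without DTA-1 replicate 3 and to −1.41 without isotype control replicate 3, with the same sign in each fit. Gm19610, an antisense RNA that overlaps Ereg, had 33.3 counts, and the sources used here do not state whether counting used strand. The gene bodies share only a short stretch at the start of Ereg, where reads of the pair cannot be told apart without strand.

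Egfr, the receptor of these ligands, lies on the plus strand of chromosome 11 from 16752203 to 16918158. It had 2.83, 0.827 and 1.36 normalized counts with isotype control, as against 0.744, 1.38 and 4.20 with DTA-1. Its groups overlapped throughout, with the highest value in DTA-1 replicate 3 and the lowest in DTA-1 replicate 1. Egfr had a log2 fold change of 0.34 (SE 0.62, 95% interval −1.02 to 1.69, edgeR adjusted p = 0.940), −0.65 without DTA-1 replicate 3 and 0.74 without DTA-1 replicate 1 (edgeR adjusted p = 0.631 for the last). Fibroblasts and other stromal cells express Egfr. The summed level of 10 fibroblast markers was 2.82 to 9.67 normalized counts in isotype control and 0.480 to 4.36 in DTA-1, with Lum, Pdgfra and Fbn1 at 0 in all DTA-1 libraries. Lum was also at 0 or 0.0850 with isotype control. In order of replicate number the DTA-1 sums were 0.970, 0.480 and 4.36, and Col3a1 was at 0, 0 and 2.89. Pi16 went the other way at levels near the limit of a 0 count, with 0.0283, 0 and 0 in isotype control. It had 0.0970, 0.192 and 0.157 with DTA-1. Pdgfrb had 0.873 in DTA-1 replicate 1 and at most 0.0283 elsewhere, and neither of these genes was tested with all libraries. Col1a1, Pdgfra and Fbn1 passed as lower without DTA-1 replicate 1 by edgeR, and by DESeq2 with all libraries. The part of these markers in the level of Egfr was not tested.

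**Figure D2:**
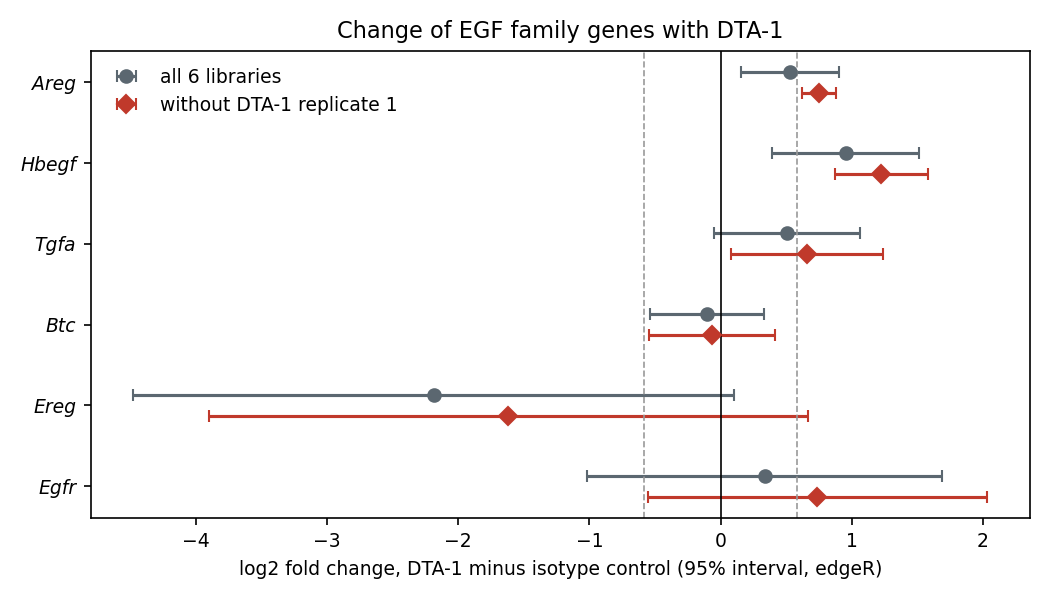
Log2 fold change of DTA-1 over isotype control (horizontal axis, edgeR, with 95% intervals) for the 6 members, with all 6 libraries (circles) and without DTA-1 replicate 1 (diamonds). The dashed lines mark 1.5-fold. Areg moves from 0.53 to 0.75 and Hbegf from 0.95 to 1.23, both with narrower intervals, whereas the intervals of Btc, Ereg and Egfr include 0 in both fits.

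Counted over the list, 0 of the 6 members passed an adjusted p under 0.05 with at least a 1.5-fold change when all libraries were used, and 0% of the 14361 genes tested did. At an unadjusted p under 0.05 with the same fold, 1 member (Hbegf) was higher, against 1.09% of genes tested, and 0 members were lower, against 1.26%. The groups did not overlap for 1 of 6 members (Hbegf), against 11.3% of genes tested. Without DTA-1 replicate 1, 2 of 6 members (Areg and Hbegf) rose, against 0.583% of the 14911 genes then tested. In either direction, 0.744% of those genes changed. That library was left out because of these same counts, and the members were chosen with earlier results known, so this share is a description. The median log2 fold change of the members was 0.42, and −0.01 over all genes tested.

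Among markers of other cells, the mast cell genes Cpa3 and Cma1 were above all isotype control libraries in DTA-1 replicates 2 and 3. Areg and Hbegf were too, but Cpa3 was higher in replicate 2 (19.4) than 3 (12.8), unlike Hbegf (15.7 and 16.5). The sum over 8 mast cell and basophil markers was 16.5 to 21.9 normalized counts with isotype control, as against 16.1, 44.9 and 33.2 with DTA-1, in order of replicate number. Cpa3, the mast cell carboxypeptidase, and Cma1, a mast cell chymase, were the 2 of these 8 that rose without DTA-1 replicate 1. Tpsb2, a mast cell tryptase, had a log2 fold change of 0.13 and Mcpt8, a basophil protease, one of −0.96, and neither passed. All 8 had counts in at least 1 library, 5 were above the limit of a 0 count in every library, and the sorting antibodies included one to FcεRI alpha. Mesothelial and epithelial markers summed to 78.5 to 86.1 normalized counts in isotype control and 52.5 to 80.2 in DTA-1, with Msln, Upk3b and Krt8 at 0 in all 6 libraries and Wt1 at 0 in DTA-1. Epcam, an epithelial adhesion molecule, made up nearly all of this sum and fell without DTA-1 replicate 1 (log2 fold change −0.60, edgeR adjusted p = 0.0122). Endothelial markers summed to 18.4 to 24.4 and 10.6 to 18.3 normalized counts, nearly all of it Pecam1, which fell without DTA-1 replicate 1 (log2 fold change −1.03, edgeR adjusted p = 0.0132), with Cdh5 at 0 throughout. T cell markers summed to 42.6 to 56.2 and 48.1 to 52.4, macrophage markers to 6.44 to 12.2 and 8.67 to 11.8, and B cell markers to 16.6 to 17.3 and 17.2 to 18.2. The adipocyte markers were at or under the limit of a 0 count. The part of any of these markers in the levels of Areg and Hbegf was not tested.

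**Figure D3:**
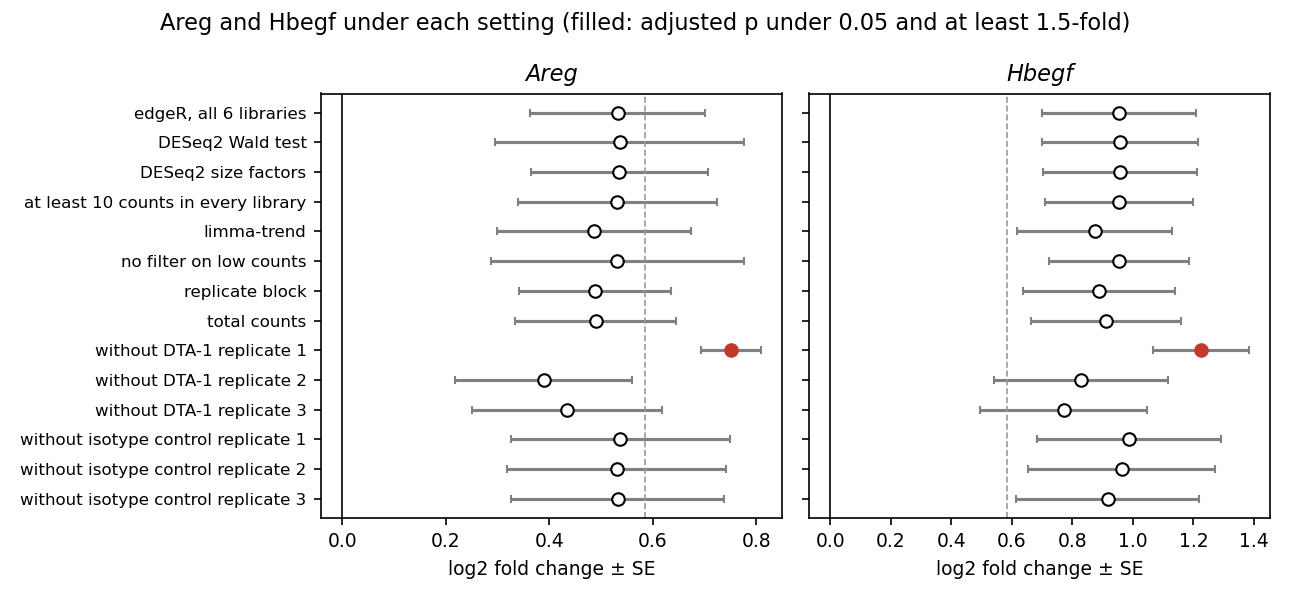
Log2 fold change (horizontal axis) of Areg and Hbegf under each setting of the analysis, with bars of ± SE. Filled symbols mark an adjusted p under 0.05 with at least 1.5-fold, and the dashed line is 1.5-fold. The filled symbols occur only in the fit without DTA-1 replicate 1, at 0.75 for Areg and 1.23 for Hbegf. That library was set apart by these same counts, so the filled symbols are a description.

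Within a library the make-up of the ligand reads can be read without any scaling between libraries. Areg made up 90.4%, 91.4% and 91.9% of the counts of the 5 ligands with isotype control, as against 91.0%, 91.9% and 91.2% with DTA-1. The groups overlapped, and the means of 91.2 ± 0.737% and 91.4 ± 0.474% differed by 0.128 percentage points (exact permutation test, two-sided, p = 0.9, where 0.1 is the smallest p that 3 against 3 allows). The sign of this difference turned to −0.275 percentage points without isotype control replicate 1 and to −0.143 without DTA-1 replicate 2, and it was 0.297 without DTA-1 replicate 1. Hbegf held 3.34%, 3.30% and 3.10% of the ligand counts with isotype control, as against 3.78%, 4.31% and 4.75% with DTA-1, with no overlap. There were 27.1, 27.7 and 29.7 Areg counts for each Hbegf count with isotype control, as against 24.1, 21.3 and 19.2 with DTA-1, again without overlap (exact permutation test, two-sided, p = 0.1, the smallest possible). This ratio was computed after the values of both genes had been seen. Btc held 2.62 ± 0.166% and 1.79 ± 0.513% of the ligand counts.

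Areg, Ereg, Btc and Epgn are neighbours on chromosome 5, where the genes of several EGF ligands form a cluster beside chemokine genes. Within 250 kb of Areg, Ereg starts 65.0 kb before it, Epgn 112 kb, Mthfd2l 208 kb, Cxcl2 236 kb and Cxcl1 248 kb. Cxcl2, a neutrophil chemoattractant, had 4.63, 3.80 and 5.35 normalized counts with isotype control, as against 3.66, 9.58 and 8.63 with DTA-1. It was thus above isotype control in DTA-1 replicates 2 and 3 and below it in DTA-1 replicate 1, the order seen for Areg. Its log2 fold change was 0.67 (edgeR adjusted p = 0.707), and 0.99 with DTA-1 replicate 1 left out (edgeR adjusted p = 0.0639). Mthfd2l, a mitochondrial folate enzyme, averaged 17.1 ± 1.92 and 15.2 ± 2.22 normalized counts with overlapping groups (log2 fold change −0.16, edgeR adjusted p = 0.850). Epgn, the gene of the ligand epigen, had 24 counts and Cxcl1 had 15 counts over the 6 libraries, and neither was tested. The other listed genes of the window were noncoding and, apart from Gm19610, were at 0.

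**Figure D4:**
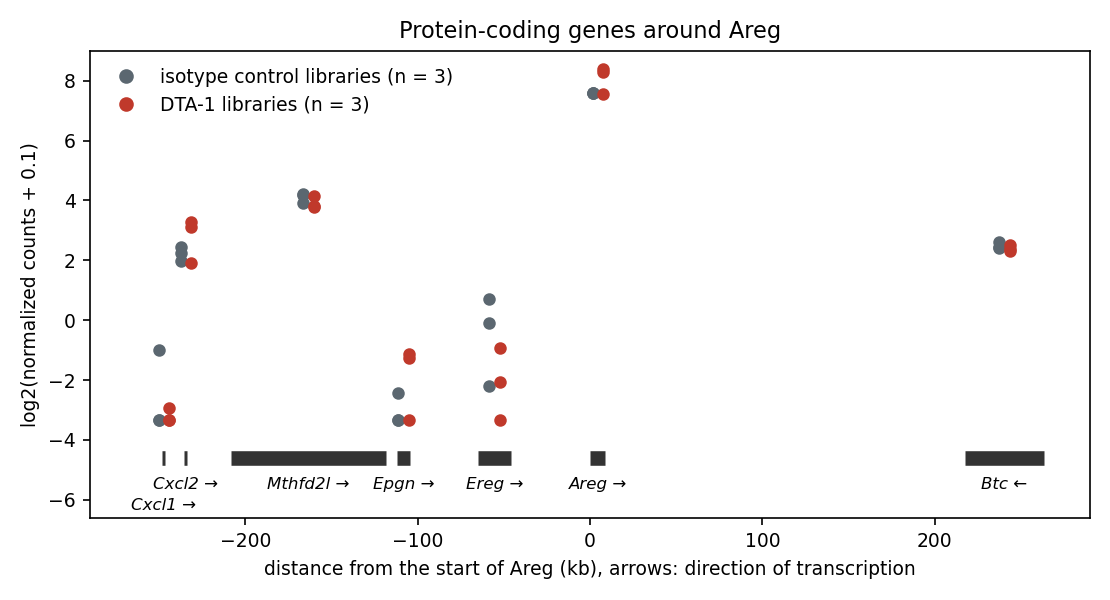
Protein-coding genes around Areg by distance from its start (kb), with bars for gene bodies and arrows for the direction of transcription. The points give log2(normalized counts + 0.1) of each isotype control and DTA-1 library. Areg stands far above its neighbours, and Cxcl2 is the one that also splits the DTA-1 libraries as Areg does.

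By the Pearson r of log2 normalized counts (prior count 2) over the 6 libraries, the tested genes most like Areg were Cd82 (r = 0.998), Calr (0.997), Il2rg (0.997), Creld2 (0.996) and Csf2 (0.996), of 4440 genes with a mean of at least 50 normalized counts. These encode a tetraspanin, calreticulin, the common gamma chain of cytokine receptors, a protein of the endoplasmic reticulum and the cytokine GM-CSF. Csf2, for instance, had 273, 271 and 279 normalized counts with isotype control, as against 269, 658 and 546 with DTA-1. An r above 0.95 with Areg was held by 168 of these genes. The points share their libraries and scaling, DTA-1 replicates 2 and 3 stand apart from the other 4, and r is given as a description. For Hbegf the 5 genes were Hcls1, Fermt3, Tnfrsf1b, Eno1b and Tmem184b, of which Eno1b is nearly identical to Eno1, so that reads may be split between them. Among the members, r with Areg was 0.980 for Hbegf, 0.763 for Tgfa, 0.486 for Egfr, −0.07 for Btc and −0.05 for Ereg.

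Of the 6 remaining EGF family ligands listed, 2 were tested and neither passed. Egf, the founding ligand, had a log2 fold change of −0.58 and Nrg4, a neuregulin, one of −0.57. Epgn, Nrg1 and Nrg2 had too few counts to be tested, and Nrg3 was at 0. Erbb3, a receptor that lacks strong kinase activity of its own, was the tested member among the other ERBB receptors. It had 12.0, 14.1 and 9.58 normalized counts with isotype control, as against 7.47, 14.6 and 11.6 with DTA-1, with overlap (log2 fold change −0.08, edgeR adjusted p = 0.960). The sign turned without DTA-1 replicate 1 (log2 fold change 0.14, edgeR adjusted p = 0.823). Erbb2 was at most 0.876 normalized counts in any library and was removed by the filter with all libraries, and with DTA-1 replicate 1 left out it did not pass (log2 fold change −1.84, edgeR adjusted p = 0.431). Erbb4, the receptor shared by several of these ligands, was at 0.

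Of 14 genes that govern release of the ligands, 12 were tested, 8 with a positive and 4 with a negative log2 fold change, and 0 passed (median 0.09). The most abundant were Adam8 and Adam10, both membrane metalloproteases, and Frmd8, a partner of the iRhom proteins that escort ADAM17. Adam8 had 465, 516 and 508 normalized counts with isotype control, as against 475, 610 and 661 with DTA-1 (log2 fold change 0.23, edgeR adjusted p = 0.692). Without DTA-1 replicate 1 its adjusted p was 0.0259 by edgeR, with a change under 1.5-fold. The log2 fold change was 0.09 for Frmd8 and 0.05 for Adam10. Adam17, chosen for its known role after the values were seen, had 106, 123 and 105 normalized counts with isotype control, as against 115, 135 and 140 with DTA-1 (log2 fold change 0.22, edgeR adjusted p = 0.657, and 0.128 without DTA-1 replicate 1), with DTA-1 replicate 1 inside the isotype control range. Timp2, a metalloprotease inhibitor also named after its values were seen, was the gene of this list past the unadjusted threshold, with a log2 fold change of −1.23 from levels under 2 normalized counts, and of −0.87 without DTA-1 replicate 1 (edgeR adjusted p = 0.431).

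The other lists of the pathway also had 0 genes past the threshold, with all libraries and without DTA-1 replicate 1. The proteins that associate with membrane-bound HB-EGF gave log2 fold changes of 0.15 for Cd44, 0.12 for Nrd1 and 0.23 for Cd9. Of 12 genes listed as regulators of EGFR or other ERBB receptors, 7 were higher and 5 lower (median log2 fold change 0.03). The most abundant, the phosphatase gene Ptpn1, the deubiquitinase gene Usp8 and the ubiquitin ligase gene Rnf41, had log2 fold changes of −0.08, 0.05 and −0.10. Of 18 tested genes that relay the EGFR signal, 9 were higher and 9 lower (median 0.00), among them the adaptor gene Grb2 at 0.07 and the kinase gene Map2k1 at 0.20. Of 8 receptor genes through which ILC2s are known to receive signals upstream of Areg, 4 were higher and 4 lower (median 0.03). Il2ra, the high-affinity IL-2 receptor chain, differed by 0.30 on the log2 scale (edgeR adjusted p = 0.627), and by 0.39 once DTA-1 replicate 1 was left out (edgeR adjusted p = 0.0122, under 1.5-fold). Il1rl1, the receptor of IL-33, had one of −0.09, and Tnfrsf18, which encodes GITR itself, one of −0.02.

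**Figure D5:**
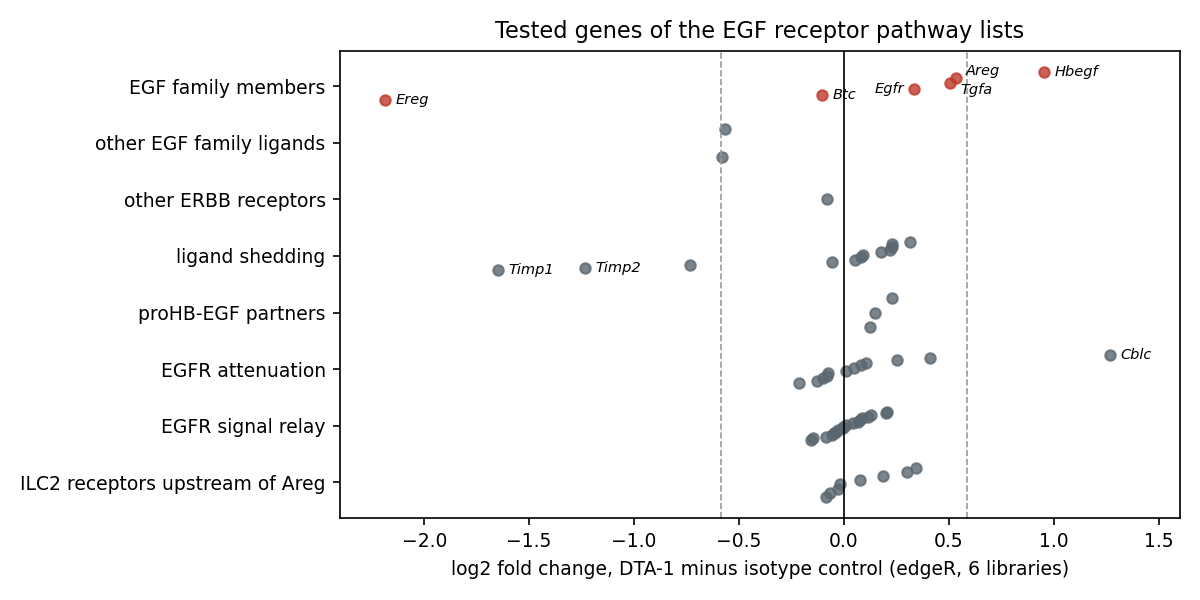
Log2 fold change of DTA-1 over isotype control (horizontal axis, edgeR with 6 libraries) of each tested gene in the lists of the EGF receptor pathway. Each point is a gene, the members are in red, and the dashed lines mark 1.5-fold. Most genes outside the members lie near 0, and Timp1, Timp2 and Cblc, with few counts, lie farther out without passing the test.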

How the data were processed

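The deposited values were assumed to be the authors' expected counts, estimated and not normalized. Of these values, 77.8% were whole numbers. The submitters' processing notes name bcl2fastq 2.17.1.14, STAR 2.5.3a, Partek and the build mm10, and the annotation and strand setting are not given in the sources used here. Exon lengths came from GENCODE mouse release 21. Expected counts were rounded and fitted across all genes with edgeR 4.0.16 in R 4.3.3 (filterByExpr by group, TMM, robust quasi-likelihood F test, Benjamini-Hochberg adjustment, no covariate), and each standard error is the log2 fold change divided by the root of F. A gene was called at an adjusted p under 0.05 and at least 1.5-fold. Tables and plots used Python 3.11.15. The script was tested on simulated data.

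The members and lists were chosen with earlier results of these data known. Genes were named if they were members, passed in a pathway list with all libraries or without 1 library, were among the 3 tested genes of a pathway list with the highest mean, lay within 250 kb of Areg, or were among the 5 most like Areg or Hbegf, and 1 gene so chosen is not reported here. Alternatives were DESeq2's size factors, total counts, DESeq2 1.42.0, limma-trend 3.58.1 (prior count 2), no filter, a minimum of 10 counts per library, a block for the replicate number, fits that leave out a single library, an unadjusted p and no fold limit.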

Additional observations from a re-analysis of the deposited data

How the results depend on the processing

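Of 205 values recomputed, 194 kept their direction and their side of the threshold or stayed within 1.5 times the count. Many of these are counts of genes called in the pathway lists, which were 0 in the main fit and in nearly every alternative. A fit in which Areg or Hbegf missed the threshold also counts as kept, because the main fit missed it. With all libraries 0 genes of the 14361 passed by edgeR, against 337 of them at an unadjusted p. By DESeq2 25 of the 25247 genes with a p-value passed, and without a filter 2 of 25251 (Ctgf and Pdgfra). With a library left out 0 to 111 passed, the 111 being of 14911 genes without DTA-1 replicate 1. At the adjusted threshold the members that passed in any of these fits were Areg and Hbegf, both without DTA-1 replicate 1, and at the unadjusted one Hbegf passed with all libraries. With a library left out, the log2 fold change was 0.39 to 0.75 for Areg, 0.77 to 1.23 for Hbegf, −3.62 to −1.41 for Ereg and −0.65 (without DTA-1 replicate 3) to 0.95 for Egfr. The difference in Areg's share of ligand counts was −0.275 to 0.448 percentage points, and −0.143 without DTA-1 replicate 2. In the shedding list 1 gene passed unadjusted. Ereg was removed by the filter of at least 10 counts. Causes were not tested.

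The groups share replicate numbers, but libraries of the same number did not deviate together (r of −0.00690, −0.00285 and 0.0152). With the replicate block 1 gene passed (Chil3), and the log2 fold changes were 0.49 for Areg and 0.89 for Hbegf. The intervals given beside each member show the differences that 3 libraries a group leave possible.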
